A study of Bos taurus with 8 samples.

Results

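The insulin signalling and glucose transport genes described here were the insulin receptor gene *INSR*, the docking protein genes *IRS1* and *IRS2*, the phosphoinositide 3-kinase (PI3K) subunit genes *PIK3R1* and *PIK3CA*, the kinase genes *AKT1* and *AKT2*, and the glucose transporter genes *SLC2A1* (GLUT1) and *SLC2A4* (GLUT4). They were chosen by symbol for their place in the pathway, by a rule that uses no expression value although earlier results of these data were known, and all 9 were found among the 18871 genes of the count table. All 9 also passed the minimum of 20 reads in total over the clones, as did 18339 genes. Positions are given from the RefSeq gene list of the cattle assembly ARS-UCD2.0, which the study's methods name. Of 4979 gene IDs in the table that begin with LOC, 4207 were not in that list, so the gene models on which the reads were counted were not identical to it.

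The series holds RNA-seq of 8 bovine preadipocyte clones, each grown from a single cell of the stromal vascular fraction (SVF), the mixed cells that remain when fat tissue is digested and the fat-filled cells are removed. The 4 IMF clones (IMF1 to IMF4) were derived from intramuscular fat, the fat between the fibers of the *longissimus dorsi* muscle, and the 4 SF clones (SF1 to SF4) from subcutaneous fat, of adult Angus cross steers with no genetic change and no treatment that separates the groups. The study chose each clone from a different SVF sample of its depot for fast growth and for the capacity to form lipid droplets, so each group stands for selected clones rather than for a whole depot, and it is not stated whether IMF and SF clones of the same number share an animal. The sources differ on the state of the cells: the series description places adipogenic induction before sequencing, while the methods have cells collected in growth medium before they were confluent.

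Insulin binds a receptor tyrosine kinase, which phosphorylates the IRS docking proteins. These recruit PI3K, a regulatory subunit bound to a catalytic subunit, and the lipid it makes brings AKT kinases to the membrane, where they are activated. In fat and muscle, AKT signalling moves vesicles that carry GLUT4 to the cell surface, while GLUT1 takes up glucose in most growing cells without insulin.

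Total counts were 19654917 to 29308882 per clone, and 3 reads corresponded to 0.0981 to 0.165 CPM, the unit of normalized read counts used here, which is scaled by total counts and TMM factors. No pair of clones of a group agreed within sampling noise, so all 8 were kept as separate samples. The 7 preadipocyte markers summed to 408 to 429 CPM in IMF and 314 to 460 CPM in SF, mostly from *PDGFRA* and *PDGFRB*. By adjusted p, *PDGFRA* and *CD34* were higher and *PPARG* was lower in IMF clones. *CD34* had at most 2 reads in any SF clone and *DLK1* had 0 in IMF2, so not every marker was detected in every clone. Of the mature adipocyte markers, *FABP4* had 7.89 to 11.5 CPM in IMF and 0 to 0.386 CPM in SF, and *CIDEC* overlapped. *PLIN1* was lower in every IMF clone (2.69 to 3.04 CPM) than in any SF clone (3.42 to 3.90 CPM). It was not called by edgeR, DESeq2 (adjusted p = 0.0759) or limma-voom (0.0954). All 8 skeletal muscle markers on the list and 6 of 7 endothelial markers were higher in IMF clones. The muscle markers summed to 509 to 615 CPM in IMF and 0.601 to 22.6 CPM in SF, with *MYOD1*, *MYOG* and *CKM* at 0 in every SF clone, and the endothelial markers to 142 to 189 CPM in IMF and 27.3 to 38.1 CPM in SF. The 4 pericyte and smooth muscle markers in the table summed to 1124 to 1261 CPM in IMF and 1339 to 7344 CPM in SF, with *ACTA2* and *CNN1* called lower and *MCAM* and *MYH11* called higher in IMF, and SF1 highest of all (*ACTA2* 6491 CPM). The part of these markers in the differences below was not tested. The labels give male animals, yet *XIST*, the RNA of the inactive X chromosome, had 3190 to 6800 reads in all 8 clones, and the genes of the Y chromosome were not analysed here.

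Of the 9 genes, *SLC2A1* was higher in IMF clones and *IRS2* and *PIK3R1* were lower, while the other 6 did not pass the test. In the quasi-likelihood test of edgeR, with p-values adjusted by Benjamini-Hochberg over all genes tested, *SLC2A1* alone had both an adjusted p under 0.05 and a log2 fold change beyond 1 in size, 11.1% of the 9 against 8.82% of all genes (4.78% higher and 4.04% lower in IMF). No gene of the 9 passed both thresholds as lower, also at an unadjusted p under 0.05 and by DESeq2 and limma-voom. With the adjusted p alone, 3 of 9 genes (33.3%) passed against 25.8% of all genes, 1 higher in IMF (14.4% of all genes) and 2 lower (11.4%). The clones of the groups did not overlap in CPM for 2 of 9 genes (22.2%) against 32.1% of all genes, *SLC2A1* in the direction that held for 18% of all genes and *PIK3R1* in the one that held for 14.1%. These shares were near those of all genes. The median log2 fold change (IMF against SF) was -0.10 over the 9 genes and -0.03 over all genes, and the median absolute log2 fold change was 0.18 over the 9 genes and 0.38 over all genes.

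**Figure D1:**
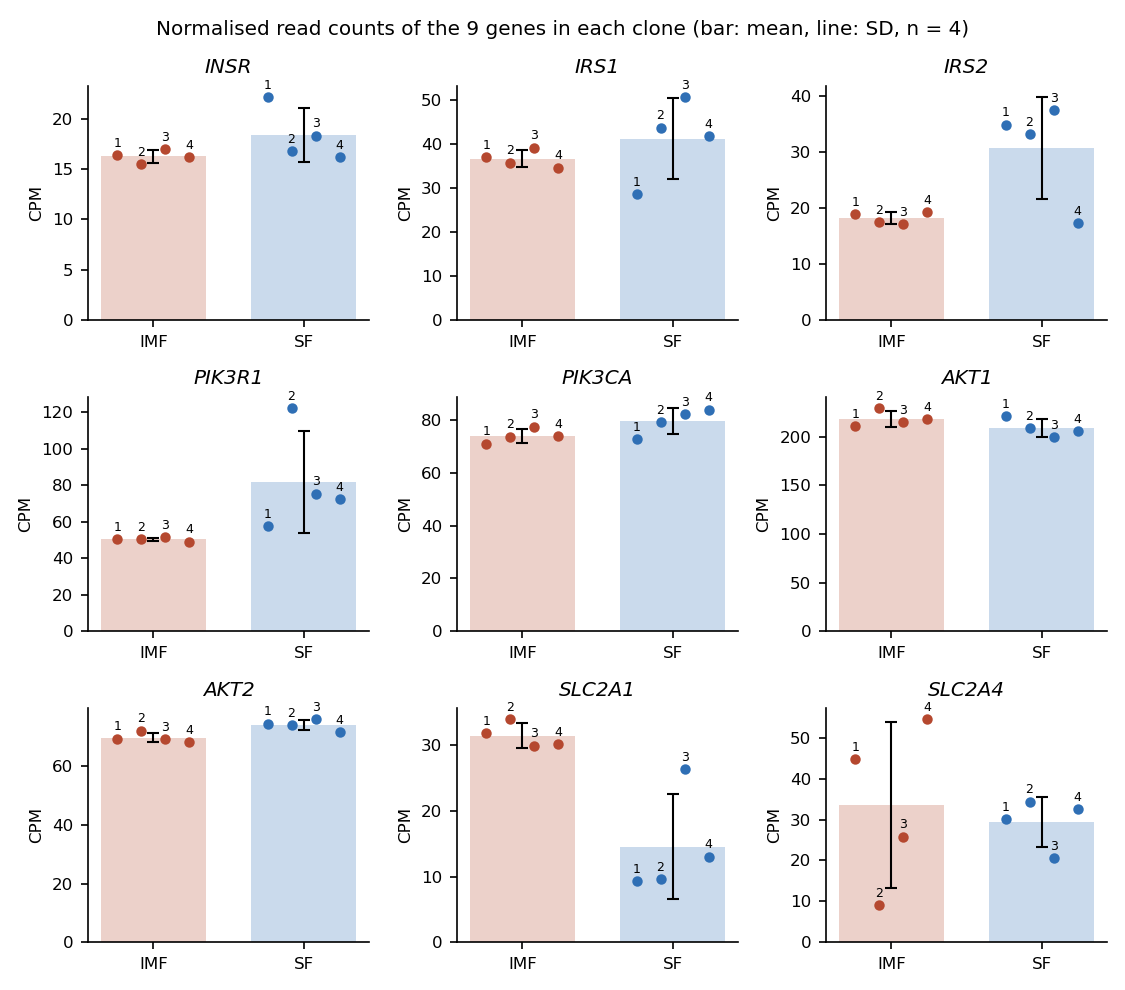
Normalized read counts (CPM, linear axes that start at 0 and differ between panels) of the 9 genes in each clone, where bars give the mean, lines the SD over 4 clones, and numbers above the points the clone. The IMF points of *SLC2A1* (29.9 to 34.0 CPM) all lie above its SF points (9.34 to 26.3 CPM), while the IMF points of *SLC2A4* spread from 9.12 to 54.5 CPM.

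*INSR* (chr7:16054185-16200493) encodes the insulin receptor. Its normalized read counts were 16.4, 15.5, 17.0 and 16.2 CPM in IMF1 to IMF4 and 22.1, 16.8, 18.3 and 16.2 CPM in SF1 to SF4. SF1 was the highest clone and the groups overlapped. The log2 fold change was -0.18 ± 0.11 (SE), with a 95% interval from -0.42 to 0.07 and an adjusted p-value of 0.276 (edgeR), so a difference of the size seen for *SLC2A1* lies outside the interval. With each clone left out, the value ran from -0.23 to -0.074.

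*IRS1* and *IRS2* encode the main docking proteins that pass the signal from the receptor to PI3K. For *IRS1* (chr2:114928433-114992724) the IMF clones had 37.0, 35.8, 39.2 and 34.7 CPM and the SF clones 28.6, 43.7, 50.7 and 41.8 CPM. The IMF clones lay inside the SF range, with SF1 lowest and SF3 highest of all 8. The log2 fold change was -0.17 ± 0.16 (95% interval from -0.53 to 0.19, edgeR adjusted p = 0.474). Without SF1 the value was -0.31 with an adjusted p of 0.0302, and without SF3 it was -0.083 (0.714), while leaving out any other clone gave no call.

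*IRS2* (chr12:84625081-84655639) was counted at 18.9, 17.5, 17.2 and 19.3 CPM in the IMF clones and at 34.8, 33.1, 37.4 and 17.4 CPM in the SF clones. SF1, SF2 and SF3 lay well above every IMF clone, whereas SF4 was inside the IMF range. Levels averaged 18.2 ± 1.05 CPM (SD, n = 4) in IMF and 30.7 ± 9.06 CPM in SF. *IRS2* was lower in IMF clones by edgeR, with a log2 fold change of -0.75 ± 0.21 (95% interval from -1.24 to -0.26) and an adjusted p-value of 0.0333, short of the fold threshold. The call was lost with limma-voom (adjusted p = 0.0518), with total counts alone (0.0932) and with the clone number as a block (0.0818), while without SF4 the log2 fold change was -0.95 (adjusted p = 0.000282). Leaving out any of the other 7 clones gave adjusted p-values of 0.0626 to 0.0826.

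*PIK3R1* (chr20:11395610-11491006), the gene of the p85α regulatory subunit that binds phosphorylated IRS proteins, had 50.3, 50.5, 51.5 and 49.2 CPM in the IMF clones. In the SF clones it had 57.8, 122, 75.5 and 72.3 CPM. Every SF clone was above every IMF clone, and SF2 was the highest. The 4 IMF clones were almost equal, with a coefficient of variation of 1.83% against 34.1% in SF. Their counts differed no more than counting error allows (chi-square 1.09 on 3 degrees of freedom, against 568 in SF). The same held in IMF for *INSR* (1.91), *IRS1* (6.80), *IRS2* (4.10), *PIK3CA* (6.11) and *AKT2* (3.21). It did not hold for *AKT1* (23.5), *SLC2A1* (8.77) or *SLC2A4* (993). *PIK3R1* was lower in IMF clones, with a log2 fold change of -0.70 ± 0.21 (95% interval from -1.17 to -0.23) and an edgeR adjusted p of 0.0368. Without SF2 the log2 fold change was -0.44, with an adjusted p of 0.0175. The call was lost without any one of the 4 IMF clones (adjusted p from 0.0665 to 0.0843) and without SF4 (0.0527), with total counts alone (0.103) and with the clone number as a block (0.0585).

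*PIK3CA* (chr1:87871397-87964022) encodes the p110α catalytic subunit, the partner of p85α. It had 71.0, 73.6, 77.4 and 73.8 CPM in the IMF clones and 72.6, 79.1, 82.2 and 83.8 CPM in the SF clones. SF1 lay among the IMF clones. The log2 fold change was -0.10 ± 0.07, and its 95% interval from -0.26 to 0.06 included 0 (edgeR adjusted p = 0.320).

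The AKT kinases carry the signal from PI3K to metabolism and growth. *AKT1* (chr21:69229676-69250154) had 211, 229, 215 and 218 CPM in the IMF clones and 221, 209, 199.7 and 206 CPM in the SF clones. *AKT2* (chr18:49627363-49674927), the form tied most closely to glucose uptake, had 69.4, 72.1, 69.1 and 68.2 CPM in the IMF clones and 74.4, 73.9, 76.0 and 71.7 CPM in the SF clones. Both were nearly level over the 8 clones. The log2 fold change of *AKT1* was 0.06 ± 0.07 (95% interval from -0.10 to 0.23, edgeR adjusted p = 0.557), and that of *AKT2* was -0.09 ± 0.06 (from -0.22 to 0.04, adjusted p = 0.314). Among genes with a mean of at least 5 CPM, the spread of *AKT2* between SF clones (SD of log2 CPM) was at percentile 1.24 and that of *AKT1* at percentile 4.83.

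*SLC2A1* (chr3:103309108-103337308) encodes GLUT1, the transporter of basal glucose uptake. It was counted at 31.8, 34.0, 29.9 and 30.2 CPM in the IMF clones and at 9.34, 9.61, 26.3 and 13.1 CPM in the SF clones. All IMF clones were above all SF clones, but SF3 came close to the lowest IMF clone. The means were 31.5 ± 1.87 CPM (SD, n = 4) in IMF and 14.6 ± 8.01 CPM in SF. *SLC2A1* was 2.15-fold higher in IMF clones (log2 fold change 1.10 ± 0.32, 95% interval from 0.38 to 1.82), with an edgeR adjusted p-value of 0.0333 and a DESeq2 adjusted p-value of 0.00489. Without SF3 the log2 fold change was 1.53 (edgeR adjusted p = 0.000322). Without any other clone it was 0.94 to 1.12 with adjusted p-values of 0.0626 to 0.0815, so that the call was lost in each of those 7 fits. As RNA was taken from whole cultures, fewer cells that express a gene and less of its RNA per cell cannot be told apart here.

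*SLC2A4* (chr19:26984018-26989772) encodes GLUT4, the transporter that insulin brings to the surface of fat and muscle cells. It had 44.7, 9.12, 25.8 and 54.5 CPM in IMF1 to IMF4 and 30.0, 34.3, 20.6 and 32.6 CPM in SF1 to SF4. IMF4 was 5.97-fold above IMF2, and the 4 SF clones lay between these extremes. The log2 fold change was 0.19 ± 0.47 (95% interval from -0.87 to 1.25, edgeR adjusted p = 0.807), an interval wide in both directions. Its sign turned with limma-voom (-0.10) and without IMF4 (-0.15), and the data give no direction for this gene.

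The spread between clones differed from gene to gene. The coefficient of variation over the IMF clones was 1.83% to 5.94% for 8 of the genes and 60.1% for *SLC2A4*. Among genes with a mean of at least 5 CPM, the spread of *SLC2A4* between IMF clones was at percentile 97.6, against percentiles of 2.76 to 40.5 for the other 8 genes. Over the SF clones the most variable gene was *SLC2A1*, with a coefficient of variation of 54.9% (percentile 93.1 by the SD of log2 CPM), followed by *PIK3R1* (34.1%) and *IRS2* (29.5%). By the SD of log2 CPM, *IRS2* (percentile 87.8) came before *PIK3R1* (percentile 85.0). The clone at the edge of the wide range was a different one in each case: within its group, IMF2 had the lowest *SLC2A4*, SF3 the highest *SLC2A1*, SF2 the highest *PIK3R1* and SF4 the lowest *IRS2*. None of these clones passed Dixon's outlier test within its group.

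Levels were compared between genes as TPM, which divides counts by the deposited gene length and then gives every clone the same total. Of 13429 named genes in the RefSeq list, 238 had a deposited length above the whole gene span, none of them among the 21 genes of this ranking and of the family shares, but whether the lengths match the gene models was not tested. In the IMF clones *AKT1* was highest at 144 ± 7.12 TPM (SD, n = 4), followed by *AKT2* at 31.9 ± 2.16, *SLC2A1* at 20.7 ± 1.46, *SLC2A4* at 16.8 ± 9.80, *PIK3CA* at 10.6 ± 0.931, *PIK3R1* at 10.2 ± 0.873, *IRS1* at 6.51 ± 0.790, *IRS2* at 4.34 ± 0.338 and *INSR* at 2.93 ± 0.310. The clones of *SLC2A4* overlapped in TPM with those of *SLC2A1* and of *PIK3CA*, and *PIK3CA* with *PIK3R1*, so these neighbors have no firm order. In the SF clones *AKT1* (136 ± 12.9 TPM) and *AKT2* (33.5 ± 3.60) were again at the top, each clear of its neighbor. *INSR* (3.26 ± 0.546) was at the bottom and clear of *IRS1*. It overlapped with *IRS2*, as *INSR* in SF1 (3.86 TPM) was above *IRS2* in SF4 (3.60 TPM). Between *AKT2* and *INSR* came *PIK3R1* at 16.7 ± 6.93, *SLC2A4* at 14.5 ± 3.20, *PIK3CA* at 11.2 ± 1.11, *SLC2A1* at 9.57 ± 5.63, *IRS2* at 7.34 ± 2.54 and *IRS1* at 7.24 ± 1.95 TPM. Each of these overlapped with the next. By mean TPM the receptor was thus the least abundant transcript of the 9 in both groups.

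The balance between genes of like role was measured within each clone as a log2 ratio of reads per base, which does not depend on how libraries are scaled. It was compared by a two-sided exact permutation test over the 70 splits of the 8 clones, which cannot give a p-value under 0.0286, with adjustment over 5 ratios. Of the 5 ratios, 3 separated the groups completely. No share was computed for ratios of other gene pairs, and 32.1% of all single genes did not overlap in CPM between the groups.

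The ratio of *INSR* to *IGF1R*, the receptor of the insulin-like growth factors, was 0.138, 0.129, 0.136 and 0.132 in the IMF clones and 0.0834, 0.0863, 0.0694 and 0.0719 in the SF clones. *INSR* was thus the lesser transcript in all 8 clones, and less so in IMF. The log2 difference was 0.79 (exact permutation p = 0.0286, adjusted p = 0.0476). *IGF1R* itself was lower in IMF clones (71.1 ± 1.73 against 138 ± 19.8 CPM, log2 fold change -0.96, edgeR adjusted p = 0.000455), while *INSR* was not called.

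The ratio of *PIK3R1* to *PIK3CA* was 1.00, 0.971, 0.941 and 0.944 in the IMF clones and 1.13, 2.19, 1.30 and 1.22 in the SF clones. *PIK3R1* and *PIK3CA* were near parity in every IMF clone, and *PIK3R1* was in excess in every SF clone, most of all in SF2. The log2 difference was -0.54 (exact permutation p = 0.0286, adjusted p = 0.0476), or -0.33 without SF2. The ratio of *AKT1* to *AKT2* was 4.38 to 4.61 in IMF clones and 3.79 to 4.29 in SF clones, a small log2 difference of 0.15 with no overlap (exact permutation p = 0.0286, adjusted p = 0.0476).

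The other two ratios overlapped between groups. The ratio of *IRS1* to *IRS2* was 1.33 to 1.69 in IMF clones and ran from 0.611 in SF1 to 1.79 in SF4, a log2 difference of 0.55 (exact permutation p = 0.143, adjusted p = 0.171) that ran from 0.31 to 0.82 with each clone left out. The ratio of *SLC2A1* to *SLC2A4* was 0.937, 4.90, 1.52 and 0.729 in the IMF clones and 0.410, 0.369, 1.68 and 0.529 in the SF clones. GLUT1 transcripts exceeded GLUT4 transcripts in IMF2, IMF3 and SF3, and GLUT4 transcripts were in excess in the other 5 clones. The log2 difference of 1.31 was not separated from clone spread (exact permutation p = 0.171, adjusted p = 0.171) and ran from 0.74 to 1.80 with each clone left out.

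**Figure D2:**
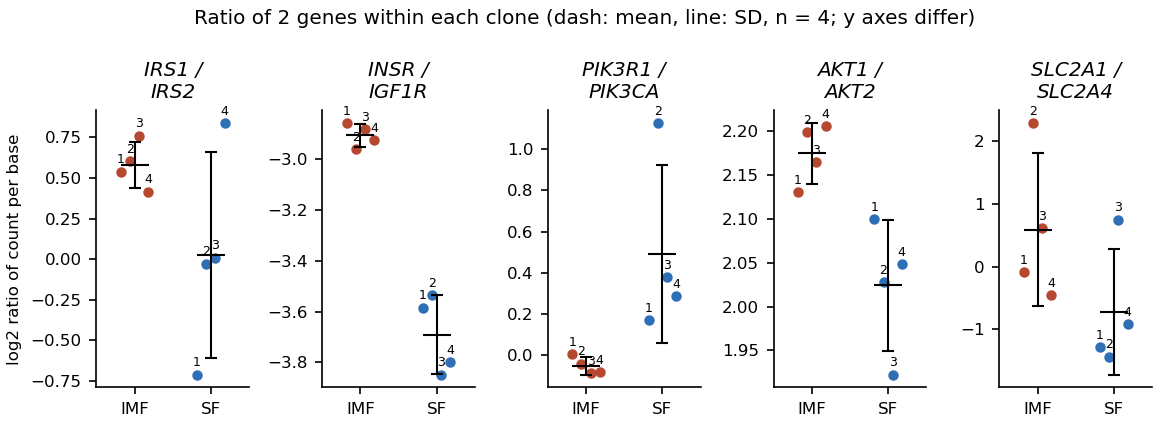
Log2 ratio of reads per base for 5 gene pairs within each clone (points, numbered by clone), with the mean as a dash and the SD as a line over 4 clones per group, on y axes that differ between panels. The groups do not overlap for *INSR* to *IGF1R*, *PIK3R1* to *PIK3CA* and *AKT1* to *AKT2*, whose log2 differences are 0.79, -0.54 and 0.15.

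The share of each gene within its family gave the same values a wider setting. Among the catalytic subunits of class IA PI3K, *PIK3CA* made up 80.6 ± 1.21% of the summed TPM in IMF clones and 91.4 ± 2.46% in SF clones (SD, n = 4). *PIK3CB* (p110β) made up 17.5 ± 1.42% and 6.44 ± 2.07%, and *PIK3CD* 1.94% and 2.13%. The summed catalytic TPM was 12.1 to 14.7 in IMF and 11.3 to 13.5 in SF, so the groups overlapped in the total. Among the regulatory subunits, *PIK3R1* made up 47.1 ± 1.96% in IMF and 62.9 ± 6.85% in SF. *PIK3R3* (p55γ) made up 15.8 ± 1.10% in IMF and 3.06 ± 0.723% in SF, with *PIK3R2* (p85β) at 37.1% and 34.1%. The summed regulatory TPM was 20.4 to 23.2 in IMF and 19.3 to 38.3 in SF, above the summed catalytic TPM in every clone, and the regulatory sums of IMF and SF clones overlapped.

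The docking protein genes were close to equal in SF (*IRS2* 49.6 ± 10.7%), where *IRS2* ran from 35.8% in SF4 to 62.1% in SF1, and it made up 40.1 ± 2.39% in IMF. Of the 10 SLC2A transporter genes measured, *SLC2A1* supplied 14.8 ± 1.97% of the summed TPM in IMF and 9.03 ± 5.34% in SF, and *SLC2A4* 11.5 ± 6.35% and 13.7 ± 3.22%. *SLC2A3* (GLUT3), a high-affinity transporter, supplied 22.4 ± 2.38% in IMF and 11.6 ± 4.11% in SF. The summed TPM of the 10 transporters was 119 to 160.1 in IMF clones and 103 to 112 in SF clones, without overlap.

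**Figure D3:**
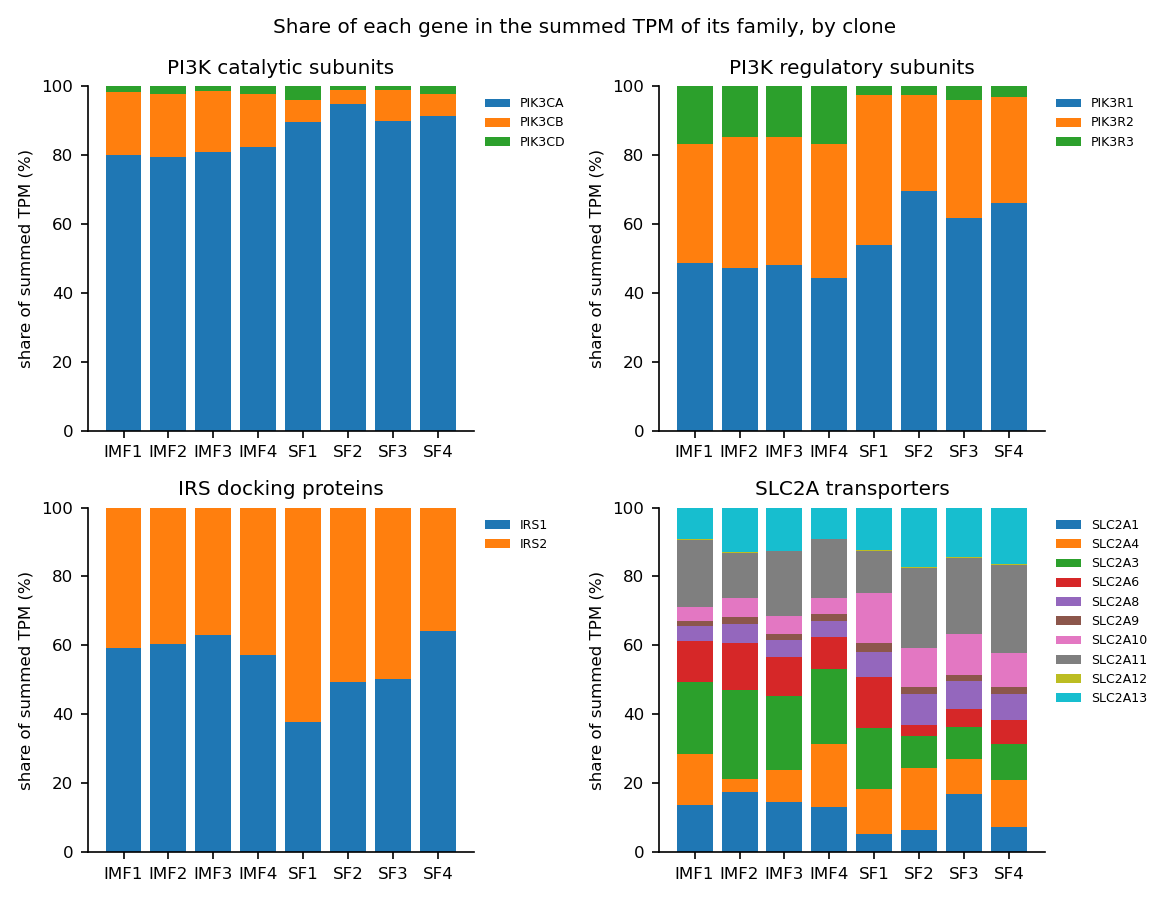
Share of each gene in the summed TPM of its family (percent, stacked to 100) in each of the 8 clones, for PI3K catalytic subunits, PI3K regulatory subunits, IRS docking proteins and SLC2A transporters. *PIK3CB* takes 15.4% to 18.4% of the catalytic subunits in IMF clones and 3.91% to 8.98% in SF clones, and *IRS2* takes 37.1% to 42.8% of the docking proteins in IMF clones and 35.8% to 62.1% in SF clones.

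Around the 9 genes, 84 other genes of the pathway were listed, of which 79 were in the table and 78 were tested. *SLC2A5* had under 20 reads in total, and the other 5 were not analysed here. By edgeR, 6 genes (7.69%) passed both thresholds against 8.82% of all genes, 4 higher and 2 lower in IMF clones. With the adjusted p-value alone 21 (26.9%) passed against 25.8% of all genes, 8 higher and 13 lower. Scaling by total counts alone turned this split to 13 higher and 8 lower. The split of all genes by adjusted p moved the same way, from 2639 higher and 2085 lower to 3356 and 1189. The turn in the pathway genes is to be read against this shift. The groups did not overlap for 32 genes (41.0%) against 32.1% of all genes, and the median log2 fold change was -0.06.

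**Figure D4:**
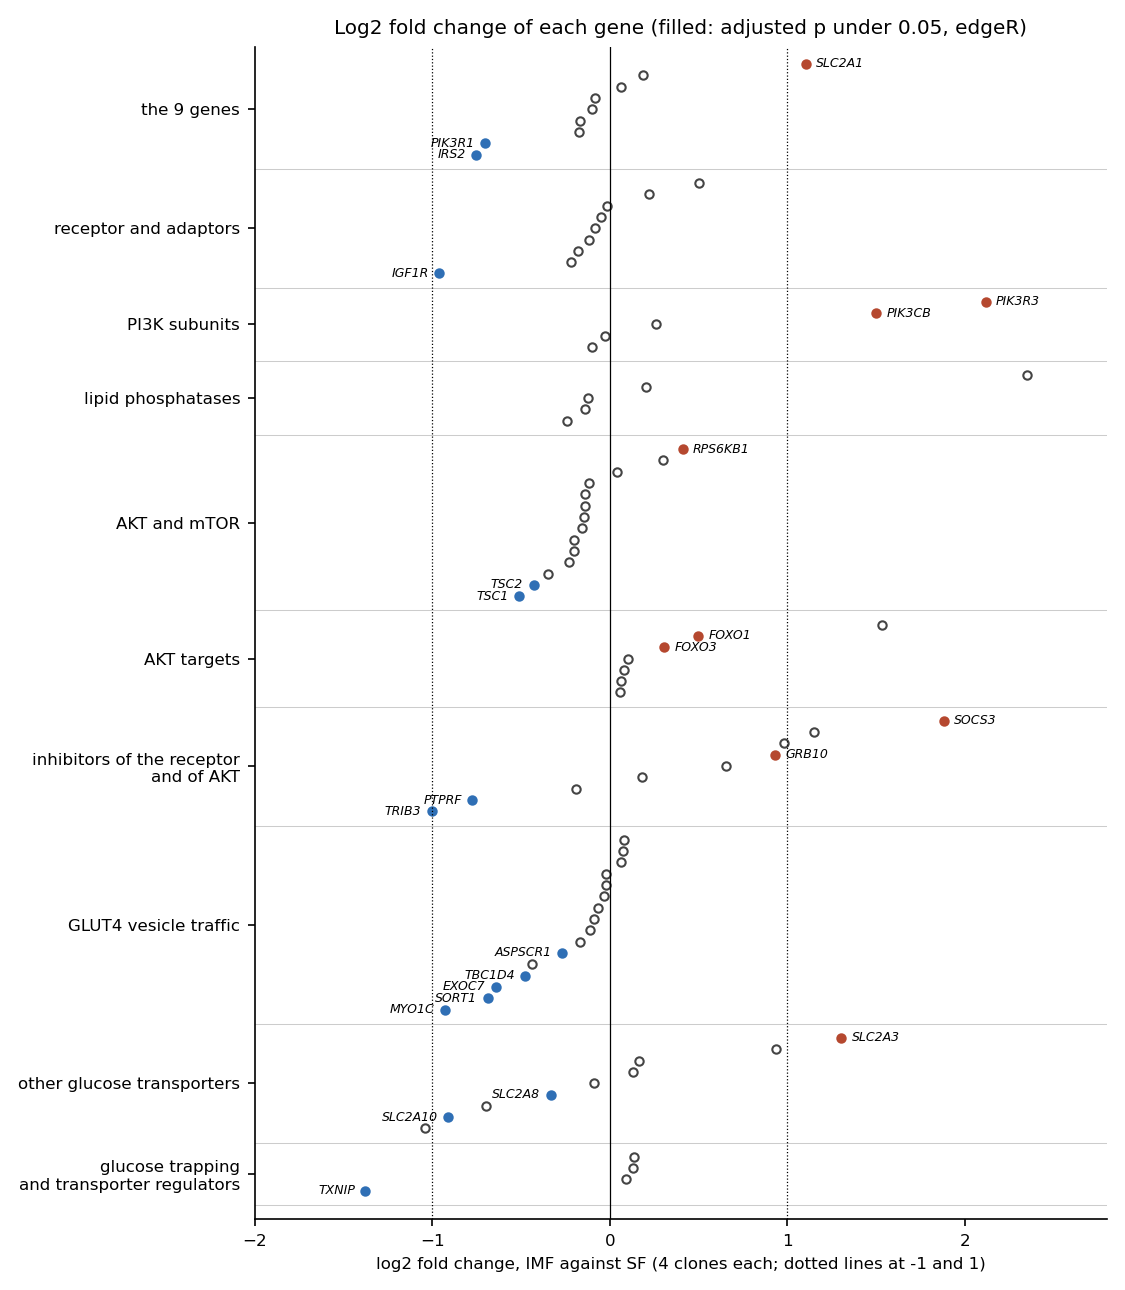
Log2 fold change (IMF against SF, 4 clones each) of the 9 genes and of 78 other pathway genes by role, 1 point per gene, filled where the edgeR adjusted p-value was under 0.05, with dotted lines at -1 and 1. *PIK3R3* (2.12), *SOCS3* (1.88) and *PIK3CB* (1.50) are the filled points farthest to the right and *TXNIP* (-1.38) the farthest to the left, while the called genes of GLUT4 vesicle traffic all lie left of 0.

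The counts by role below can be read against 14.4% of all genes called higher and 11.4% called lower in IMF by the adjusted p of edgeR. These were 2639 genes higher and 2085 lower. By adjusted p, DESeq2 called more of all genes, 3218 higher and 2823 lower, and limma-voom 2895 and 2126. Counts by those tools are to be read against these numbers. Of the 9 receptor and adaptor genes tested, *IGF1R* passed as lower in IMF clones by edgeR and the other 8 did not, while DESeq2 called 3 of the 9 lower, *PTPN11* and *SOS1* beside *IGF1R*. The most abundant, *SHC1*, an adaptor that links the receptor to the RAS pathway, averaged 141 ± 4.24 CPM over IMF clones and 149 ± 23.5 CPM over SF clones (log2 fold change -0.08, 95% interval from -0.35 to 0.18, adjusted p = 0.655).

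Of 5 further PI3K subunits, *PIK3CB* and *PIK3R3* were higher in IMF clones. *PIK3CB* had 7.05, 7.29, 7.34 and 5.95 CPM in IMF clones and 2.26, 1.40, 3.53 and 2.53 CPM in SF clones. *PIK3R3* had 12.2, 11.3, 11.2 and 13.2 CPM in IMF clones and 1.95, 3.15, 3.53 and 2.37 CPM in SF clones. Neither gene overlapped between groups, and both had low levels in every SF clone. The log2 fold changes were 1.50 ± 0.26 (edgeR adjusted p = 0.00396) and 2.12 ± 0.19 (adjusted p = 0.000168), a 2.83-fold and a 4.33-fold difference. The most abundant of the 5, *PIK3R2*, did not pass (log2 fold change -0.10, adjusted p = 0.601). The regulatory genes *PIK3R1* and *PIK3R3* thus differed in opposite directions.

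Of the 5 phosphatases tested, which act on lipids of the PI3K pathway or on the AKT protein, none passed in edgeR. At an unadjusted p under 0.05 edgeR gave 1 higher and 1 lower, DESeq2 called 1 lower and limma-voom 1 higher. *INPPL1* (SHIP2), the most abundant, had a log2 fold change of -0.14 (95% interval from -0.44 to 0.15, adjusted p = 0.467).

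Of the 14 AKT and mTOR genes, *RPS6KB1*, the S6 kinase, was higher in IMF clones (log2 fold change 0.41, edgeR adjusted p = 0.00335). *TSC1* (-0.51, adjusted p = 0.00804) and *TSC2* (-0.43, adjusted p = 0.00529), whose products form the complex that restrains mTOR, were lower. With total counts alone as scaling, *TSC1* (-0.37, adjusted p = 0.0618) and *TSC2* (-0.29, adjusted p = 0.0950) did not pass. *EIF4EBP1*, a translation repressor and the most abundant gene of this role, did not pass (-0.14, adjusted p = 0.211). DESeq2 called 1 of the 14 higher and 5 lower, and limma-voom 1 higher and 3 lower. Of the 7 AKT targets, *FOXO1* (0.50, adjusted p = 0.00996) and *FOXO3* (0.31, adjusted p = 0.0264), transcription factors that AKT keeps out of the nucleus, were higher in IMF clones, and *FOXO3* lost the call without IMF1, IMF2 or IMF3 (adjusted p from 0.0643 to 0.0875) and with the clone number as a block (0.0535). The most abundant target, *BAD*, did not pass (0.10, adjusted p = 0.542). *PDE3B*, a phosphodiesterase that breaks down cyclic AMP, had the largest fold change of this role but did not pass in edgeR (1.53, adjusted p = 0.0800), while DESeq2 (adjusted p = 0.0337) and limma-voom (0.0214) called it higher past both thresholds.

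Of the 9 inhibitors of the receptor and of AKT that were tested, *SOCS3* and *GRB10* were higher and *TRIB3* and *PTPRF* lower in IMF clones. *SOCS3*, which blocks signalling from cytokine receptors and the insulin receptor, had 14.1, 14.3, 15.4 and 14.2 CPM in IMF clones and 3.90, 3.50, 4.50 and 3.80 CPM in SF clones. Its levels were tight within each group and far apart between them (log2 fold change 1.88 ± 0.11, 3.69-fold, edgeR adjusted p = 1.4e-05). *TRIB3*, a pseudokinase that binds AKT, had 37.5, 38.3, 36.9 and 29.9 CPM in IMF clones and 85.5, 65.3, 65.7 and 69.7 CPM in SF clones (log2 fold change -1.004 ± 0.12, adjusted p = 0.000573), which was at the fold threshold. *PTPRF*, a receptor phosphatase and the most abundant gene of this role, averaged 161 ± 4.95 CPM over IMF clones and 275 ± 13.6 CPM over SF clones (log2 fold change -0.77, adjusted p = 0.000179). *GRB10*, an adaptor that binds the insulin receptor and dampens it, had 97.5 ± 5.50 and 51.1 ± 11.2 CPM (0.93, adjusted p = 0.00222). By edgeR 2 of the 9 were thus higher and 2 lower, while DESeq2 called 6 higher and 2 lower and limma-voom 5 higher and 2 lower.

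Of the 16 genes of GLUT4 vesicle traffic, 5 were lower in IMF clones by edgeR (11.4% of all genes) and none was higher (14.4% of all genes), with none higher at an unadjusted p under 0.05 or by DESeq2 or limma-voom. *MYO1C*, the motor protein that aids docking of the vesicles, had 288, 296, 287 and 288 CPM in IMF clones and 853, 415, 427 and 512 CPM in SF clones, with SF1, the clone with the highest smooth muscle markers, far above the rest (log2 fold change -0.93 ± 0.22, adjusted p = 0.0173). *EXOC7*, a subunit of the exocyst tethering complex, had 33.6 ± 0.781 and 52.4 ± 4.19 CPM (-0.64, adjusted p = 0.000513). *SORT1*, the sorting receptor sortilin, had 4.86 ± 0.784 and 7.83 ± 0.393 CPM (-0.69, adjusted p = 0.00856). *TBC1D4* (AS160), the AKT substrate that holds the vesicles back, had a log2 fold change of -0.48 (adjusted p = 0.0123) and *ASPSCR1* (TUG), a tether of the vesicles, one of -0.27 (adjusted p = 0.0170), and neither passed with total counts alone (adjusted p = 0.134 and 0.413). The other 11, among them the abundant *RAC1* (0.06, adjusted p = 0.522), did not pass in edgeR, while DESeq2 called 6 of the 16 lower, with *VAMP2* added (adjusted p = 0.0269), and limma-voom 5.

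Of the 9 other glucose transporters tested, *SLC2A3* was higher in IMF clones at 88.4, 92.3, 81.2 and 91.4 CPM against 57.6, 24.8, 26.6 and 34.3 CPM in SF clones. SF1 was its highest SF clone, unlike *SLC2A1*, for which SF1 was the lowest. The log2 fold change of *SLC2A3* was 1.30 ± 0.25 (edgeR adjusted p = 0.00640). *SLC2A10* (-0.91, adjusted p = 0.00237) and *SLC2A8* (-0.33, adjusted p = 0.0199) were lower in IMF clones, the latter not with total counts alone (adjusted p = 0.253), without IMF4 (0.0543) or with the clone number as a block (0.0729). *SLC5A1*, a sodium-coupled glucose transporter and the most abundant of the 9, had 68.7, 20.6, 40.9 and 51.6 CPM in IMF clones and 125, 66.4, 79.8 and 102 CPM in SF clones. IMF2 was again the lowest clone. *SLC5A1* missed the adjusted p in edgeR (log2 fold change -1.04 ± 0.35, adjusted p = 0.0601) but passed it in DESeq2 (0.0179) and limma-voom (0.0478), and in edgeR with the clone number as a block (0.00958), without IMF1 (0.0366) and on RefSeq gene IDs only (0.0473). It did not pass under the other 15 alternatives.

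Of the 4 genes of glucose trapping and transporter regulation that were tested, *TXNIP*, an arrestin that promotes the removal of GLUT1 from the cell surface, was lower in IMF clones. It had 61.6, 70.5, 66.0 and 61.3 CPM in IMF clones and 166, 213, 146 and 149 CPM in SF clones, a 2.60-fold difference without overlap (log2 fold change -1.38 ± 0.13, edgeR adjusted p = 0.000194). The hexokinase gene *HK2*, whose product traps glucose in the cell, did not pass (46.3 ± 1.68 against 42.2 ± 19.3 CPM, log2 fold change 0.13, adjusted p = 0.785).

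The genes with a RefSeq symbol whose profile over the 8 clones was nearest to that of *SLC2A1*, by root-mean-square difference of centered log2 CPM among 15378 genes, were *PLS1* (0.19), *EFR3B* (0.20) and *VOPP1* (0.22). For all 3, SF3 was close to the IMF clones. *PLS1*, for example, had 4.80 to 6.42 CPM in IMF clones, 4.71 CPM in SF3 and 1.33 to 2.31 CPM in the other SF clones. For *SLC2A4* the nearest named genes were *RTN4RL1* (0.18), *LGI4* (0.23) and *MYOCD* (0.24), and 4 of its 10 nearest gene IDs were not in the RefSeq list. *RTN4RL1* had 14.0, 2.49, 8.43 and 17.5 CPM in the IMF clones, in the same order as *SLC2A4*. *MYOCD*, a coactivator of smooth and cardiac muscle genes, had 25.4, 4.48, 9.34 and 37.3 CPM. The nearest genes of *SLC2A1* and *SLC2A4* were picked for likeness over these same clones, so a shared order of clones follows from the choice.

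The summed leukocyte markers (*PTPRC*, *LCP1*, *CD68* and *TYROBP*) were also lowest in IMF2 and highest in IMF4 among the IMF clones, at 59.2, 25.4, 50.4 and 73.1 CPM in IMF1 to IMF4, and were 136, 90.7, 80.4 and 122 CPM in SF1 to SF4. The sums of the groups did not overlap, and neither did *PTPRC*, at 1.90 CPM in IMF2 to 19.2 CPM in IMF1 against 24.8 to 49.6 CPM in SF. By adjusted p, edgeR called none of the 4 leukocyte markers (*PTPRC* and *LCP1* at an unadjusted p under 0.05), whereas *PTPRC* was lower in IMF clones by DESeq2 (0.00905) and limma-voom (0.0184) and *LCP1* by DESeq2 (0.0488). The summed skeletal muscle markers were 615, 590.1, 589.6 and 509 CPM in IMF1 to IMF4, lowest in the clone with the most *SLC2A4*. The part of these markers in the spread of *SLC2A4* was not tested.

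**Figure D5:**
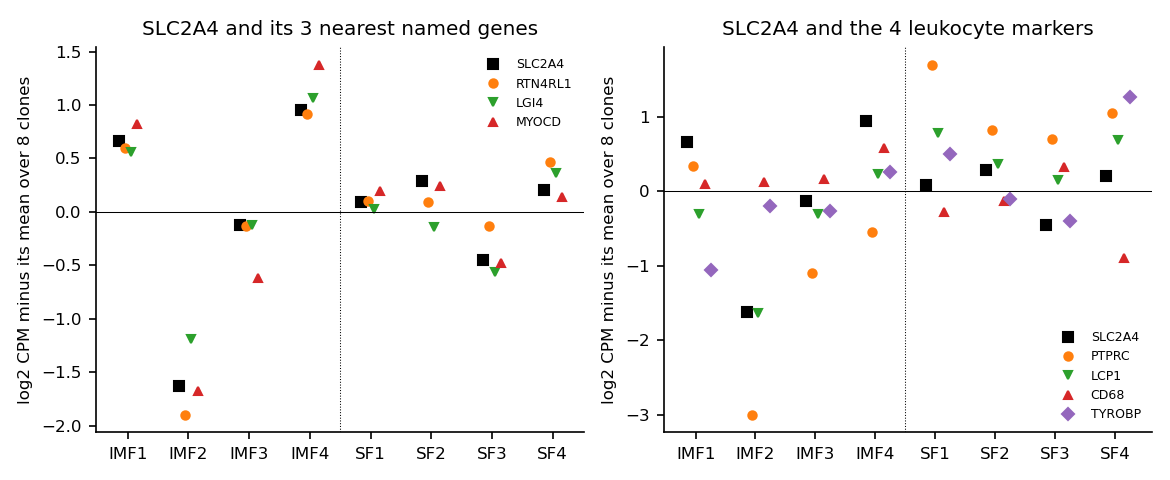
Log2 CPM minus its mean over the 8 clones for *SLC2A4* (black squares) beside its 3 nearest named genes (left) and beside 4 leukocyte markers (right), by clone, with a dotted line between the groups. *SLC2A4* runs from 9.12 CPM in IMF2 to 54.5 CPM in IMF4. The nearest genes, picked for likeness to it, have their lowest point in IMF2 as well, while *CD68* and *TYROBP* do not.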

How the data were processed

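RNA-seq was compared between 4 IMF and 4 SF clones, grouped by the sample titles. Per the methods and labels, the authors trimmed reads with Trimmomatic 0.39 and counted them per gene with featureCounts 2.0.2, after alignment with HISAT2 to ARS-UCD2.0 by the methods or with STAR 2.7.11a by the submitters' processing notes. The authors deposited raw read counts and a gene length, which were used here, beside group means and a DESeq2 comparison of the groups (fold changes, p-values and calls), which were not. The methods describe a non-stranded kit and the labels second-strand synthesis with dUTP, and the counting of strand is not given in the sources used here, so overlapping antisense genes could share reads. A row without a gene name (0.0148% to 0.0209% of counts) was left out.

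For genes with at least 20 counts in total, edgeR 4.0.16 was run in R 4.3.3 (TMM, two-sided quasi-likelihood test, Benjamini-Hochberg adjustment over 18339 genes). The thresholds were 0.05 for the adjusted p and 1 for the size of the log2 fold change. SE and 95% interval came from the same fit. CPM used TMM-scaled totals, TPM the deposited length, and ratios a pseudocount of 0.5 (exact permutation test, scipy 1.17.1 in Python 3.11.15). Floors of 3 counts cover counting error only. On simulated counts for this comparison (18059 genes), edgeR recovered 148 of 200 genes whose log2 level was shifted by 2, with 5 false calls. The simulated spread followed only the trend with expression level, and fewer genes were changed than were called in the data. These rates may therefore not hold for the data. Alternatives were DESeq2 1.42.0, limma-voom (limma 3.58.1) with and without a variance for each group, 3 other scalings, 2 other filters, robust dispersion, a test against the fold threshold, the clone number as a block, and each clone left out. A fit on gene IDs of the RefSeq list only was added after seeing the data.

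The 9 genes and all gene lists were chosen with earlier results of these data known. Named were the 9 genes, the pathway genes past both thresholds, the most abundant (by TPM) of each role and the 3 nearest profiles of *SLC2A1*. The pathway genes with only an adjusted p under 0.05, *HK2*, *PTPN11*, *SOS1*, *VAMP2*, *PDE3B* and the nearest profiles of *SLC2A4* were named after their values were seen. Promoter and protein sequences were not used here, and a few genes of the pathway list are counted but not reported by name.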

Additional observations from a re-analysis of the deposited data

Results flagged for a closer look

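The 9 genes themselves gave no clone that stood apart by Dixon's test at the 95% level. Of 74 groups tested over 37 genes, the 9 and 28 pathway genes, 4 had such a clone, all 4 of them IMF groups, where chance alone flags about 1 group in 20. *INPPL1* was lowest in IMF4 at 187 CPM, with the other IMF clones at 200.8 to 201.3 CPM. *TRIB3* was lowest in IMF4 at 29.9 CPM (the others 36.9 to 38.3 CPM), *TSC2* in IMF1 at 49.8 CPM (53.9 to 54.5 CPM), and *MYO1C* was highest in IMF2 at 296 CPM (287 to 288 CPM). The SF clones of these 4 genes were spread more widely than the gaps, and the wide ranges of *SLC2A4* in IMF and of *PIK3R1* and *SLC2A1* in SF did not pass the test.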

How the results depend on the processing

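Over 20 alternatives, *INSR*, *IRS1*, *IRS2*, *PIK3R1*, *AKT1* and *SLC2A1* kept their direction. With total counts alone the all-gene median (log2 fold change) went from -0.03 to 0.12, and *PIK3CA* (0.046), *AKT2* (0.060), *SHC1* (0.064), *PIK3R2* (0.034), *INPPL1* (0.018) and *EIF4EBP1* (0.013) turned in sign. Relative to the median of all genes, *PIK3CA* was at -0.07 under both scalings, and *IRS2* (-0.72 and -0.74) and *PIK3R1* (-0.67 and -0.68) were near their values with TMM. *SLC2A4* turned with limma-voom (-0.10, also with a variance for each group), with the block (-0.012), without IMF1 (-0.00067) and without IMF4 (-0.15), and ran to 0.49 without IMF2. Of the 9 genes, 1 passed with total counts alone (*SLC2A1*; *IRS2* adjusted p = 0.0932, *PIK3R1* 0.103), and edgeR's test against the fold threshold (glmTreat) called 0 of the 9, 2 pathway genes (*PIK3R3*, *SOCS3*) and 631 of all genes. With each clone left out, 0 to 1 of the 9 passed both thresholds and 0 to 2 the adjusted p, and 5 to 9 and 20 to 28 pathway genes and 1330 to 1641 and 3340 to 5087 of all genes did. Pathway genes past both thresholds were 12 with limma-voom and 11 with a variance for each group (6 in the main fit). Of all genes, 1772 and 1770 passed both (1618 in the main fit). DESeq2 called 34 pathway genes by adjusted p (21 in the main fit) and 6041 of all genes (4724). The split of all genes past both thresholds, 877 higher and 741 lower, became 1078 and 539 with total counts alone. The 3 ratios past the threshold were 0.73 to 0.84, -0.65 to -0.33 and 0.12 to 0.18 with each clone left out, where 4 against 3 clones cannot go under 0.0571. Causes of these changes were not tested. The 9 genes had at least 182 reads in every clone.

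Whether the clone numbers pair the samples could not be settled from the counts. Deviations of same-numbered clones correlated at -0.0093 to 0.139, 1 of 4 above 0.1. Their mean was 0.055, against -0.018 for different numbers, and 4 of 8 clones correlated best with their own number. Correlations this low can neither show nor exclude a shared animal. With the number as a block, 1 of the 9 genes passed (*SLC2A1*, 1.24, adjusted p = 0.0402; *IRS2* -0.70, 0.0818; *PIK3R1* -0.65, 0.0585), pathway calls were 7 past both thresholds and 20 by adjusted p, and the ratios of 0.79, -0.54 and 0.15 had an exact sign-flip p of 0.125, the smallest possible.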
